A study of Huso dauricus with 9 samples.

Results

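The comparison described here set the gut of 3 kaluga sturgeon recaptured 30 days after release into a river (D30FL 1 to 3) against the gut of 3 fish taken at day 0 (Ori 1 to 3). These are 6 of the 9 libraries of the series; the remaining 3 come from day 14 (D14FL). Transcripts were compared on log2(FPKM + 1) after each library had been scaled so that the typical transcript did not change. Of 59331 assembled transcripts, 22609 had both a Swiss-Prot match and a fish species as best hit in the NCBI NR collection of proteins, and they are called fish-matched here. The gene descriptions below come from these 22609 transcripts unless stated otherwise, and 20007 of them passed the filter on low values and were tested.

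The kaluga sturgeon (Huso dauricus) is a large river fish that is reared and released to restock its population. All fish were dyed in the snout before release for later recognition, and at each time they were caught by seine and anaesthetised with tricaine before the intestine was taken. The groups differ in time since release, 0, 14 and 30 days, and no genotype, sex, age or batch is given for any fish. No fish held in captivity until day 30 is among the samples, so effects of release time, season, diet and library preparation cannot be told apart.

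The lining of the gut consists of enterocytes, which digest and absorb food at their brush border, and of mucus, hormone and immune cells, and it is renewed by dividing cells at its base. The exocrine pancreas makes the proteases, lipases and amylase that work in the gut lumen, its islets make insulin, and in vertebrates it lies beside the first part of the intestine. Cortisol, the main stress hormone of fish, acts through the glucocorticoid receptor on genes such as FKBP5 and, in fasting, on genes of glucose production.

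Enterocyte markers were present in both groups, as the tissue label gives. VIL1, which encodes the microvillus protein villin, stood at 25.5, 37.8 and 54 scaled FPKM in Ori 1, 2 and 3 and at 30, 38.8 and 32.4 in D30FL 1, 2 and 3. CDX1, an intestinal transcription factor, stood at 126 to 188 in Ori and at 59.6 to 107 in D30FL. Both genes are given to show presence alone. Of the 29 brush border genes tested, 4 had a log2 change above 0, and 0 were called. Each library held between 35812 and 49503 transcripts with FPKM of 1 or more, and the depth behind the values is unknown. D30FL 3 resembled the day 0 fish more than the other day 30 fish did: its correlation with the 3 Ori libraries across transcripts, which are not independent, was 0.816 to 0.85, against 0.75 to 0.781 for D30FL 1 and 0.615 to 0.65 for D30FL 2. It lay inside the Ori range for 48.1% of the 53822 transcripts tested, and it was the closest of the 3 day 30 fish to the Ori mean for 49.0%.

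At day 30, 550 of the 53822 transcripts tested were higher than at day 0 (1.02%) and 723 were lower (1.34%), 2.37% in all, by limma with a Benjamini-Hochberg adjusted p under 0.05. Among fish-matched transcripts 143 were higher (0.715%) and 169 were lower (0.845%), 1.56% in all. The counts of calls in gene lists below are to be read against these shares. Of 1811 transcripts whose best match was not a fish, 49 were higher (2.71%) and 50 lower (2.76%), 5.47% in all. Of 28584 with no match, 330 were higher (1.15%) and 459 lower (1.61%), 2.76% in all. The 3 Ori and 3 D30FL values did not overlap for 24.8% of all transcripts tested and for 25.5% of fish-matched ones. Without the scaling, which moved the median log2 change of all transcripts from 0.37 to 0.05, 1364 were higher and 403 lower, so that higher calls made up 77.2% of calls in place of 43.2%.

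More transcripts were called when D30FL 3 was left out. Without it, 2109 transcripts were higher (3.92%) and 2299 lower (4.27%), 8.19% in all; among fish-matched ones 676 were higher (3.38%) and 799 lower (3.99%). The 4408 calls included 1246 of the 1273 calls made with all 9 libraries. In the calls gained, a set that this choice of libraries defines, D30FL 3 lay inside the Ori range for 33.5% of those higher and 23.2% of those lower. Leaving out another day 30 fish lowered the count: 80 calls were left without D30FL 1 and 188 without D30FL 2. Leaving out an Ori fish left between 232 and 596 calls, and leaving out a D14FL fish, which enters through the shared estimate of spread, between 577 and 1095.

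**Figure D1:**
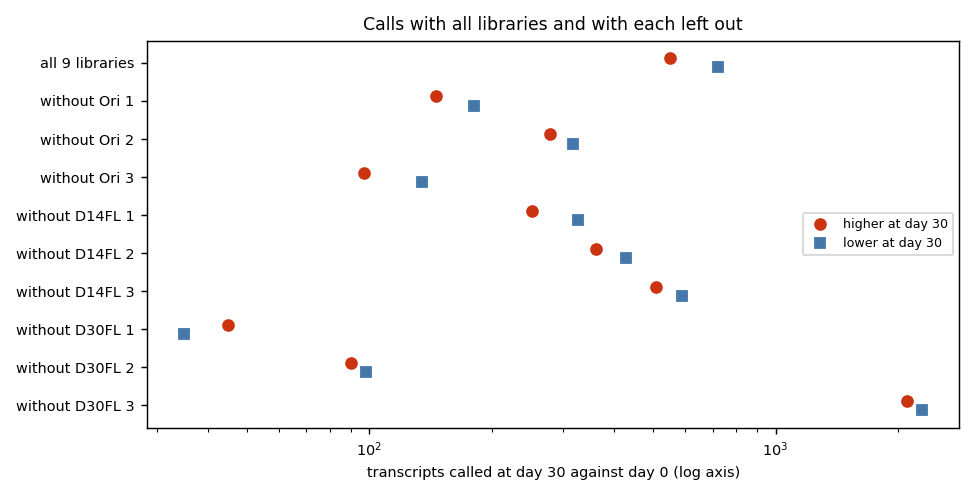
Number of transcripts called higher (circles) and lower (squares) at day 30 than at day 0 (log axis), with all 9 libraries and with each library left out. The counts run from 45 higher and 35 lower without D30FL 1 to 2109 higher and 2299 lower without D30FL 3.

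Calls that did not hang on any single fish were few. Of the 1273, 69 were also made in each of the 9 fits that left out a library, and 14 of these were fish-matched, 13 higher and 1 lower. They include the hormone gene INS, the stress genes DDIT4 and FKBP5, PCK1 of glucose production, cadherins, complement components and the matrix protein FBLN1. All 14 had D30FL values, D30FL 3 included, that lay outside the Ori range. This does not set them apart, since it held for all 550 higher and all 723 lower calls. The other named calls below were each lost without at least 1 library, and many without most of them. SLC26A3, PHKG1, OTC, TYMS, NDUFB9, NDUFS5 and AIF1 kept their call in only 1 of the 9 fits. MKI67, PLK1, SCD, ABCA1, HSF2, STEAP4, MAP1LC3A, IRF1, PSMB9, PKM and S100B kept theirs in only 2.

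**Figure D2:**
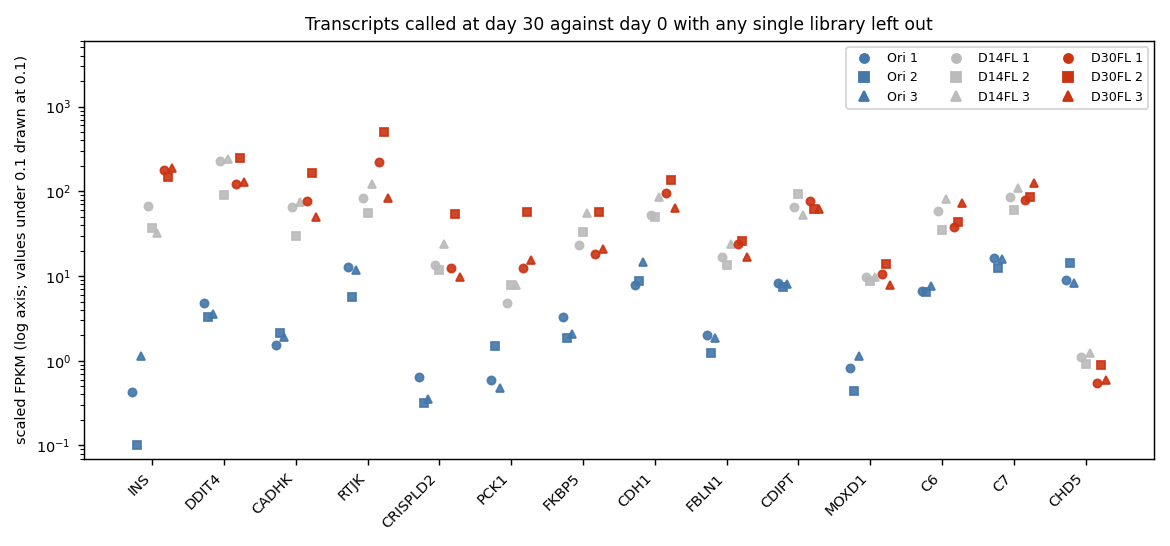
Scaled FPKM (log axis, values under 0.1 drawn at 0.1) of the 14 fish-matched transcripts called with any single library left out, in Ori (blue), D14FL (grey) and D30FL (red), with marker shape for the fish number. The 3 red points of each transcript lie on one side of the 3 blue points; CHD5 is the transcript that was lower at day 30.

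INS (TRINITY_DN22802_c0_g1_i1_1), which encodes insulin, stood at 0.426, 0 and 1.13 scaled FPKM in Ori 1, 2 and 3 and at 179, 148 and 188 in D30FL 1, 2 and 3. The day 30 fish were all far above the day 0 fish and close to one another, with D30FL 3 the highest. INS rose by 6.89 log2 units (SE 0.37, adjusted p = 3.46e-05), and by 6.82 without D30FL 3 (adjusted p = 0.000644). At day 14 it stood at 66.7, 37.4 and 32.2, below each day 30 fish. The difference of 1.96 log2 units between days 30 and 14 had an unadjusted p of 0.000219 and an adjusted p of 1. In that comparison of days 30 and 14, 1 of 53822 transcripts was called (0.00186%), a transcript with no match, and 1889 had an unadjusted p under 0.05 (3.51%).

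DDIT4 (TRINITY_DN36882_c0_g1_i4_1), which restrains mTOR signalling under stress, stood at 4.82, 3.31 and 3.59 scaled FPKM in Ori and at 122, 250 and 129 in D30FL. No day 30 fish came near the day 0 range, and D30FL 3 was level with D30FL 1. It rose by 5.03 log2 units (SE 0.42, adjusted p = 0.00161). At day 14 it already stood at 231, 91.3 and 242. FKBP5 (TRINITY_DN41223_c0_g1_i6_1), a co-chaperone of the glucocorticoid receptor and one of its target genes in mammals, stood at 3.26, 1.85 and 2.04 in Ori and at 18.2, 57.7 and 20.7 in D30FL. D30FL 2 was the highest and the groups did not overlap. The log2 change was 3.13 (SE 0.46, adjusted p = 0.0118). FKBP5 already stood at 23.5, 33.2 and 55.4 at day 14. Between days 30 and 14 the unadjusted p by limma was 0.775 for DDIT4 and 0.506 for FKBP5. PCK1 (TRINITY_DN40075_c0_g1_i6_1), the cytosolic enzyme that commits carbon to gluconeogenesis, stood at 0.587, 1.5 and 0.481 in Ori and at 12.3, 56.7 and 15.3 in D30FL. It rose by 3.68 log2 units (SE 0.52, adjusted p = 0.00972). Its day 14 values of 4.78, 7.91 and 7.83 lay between the groups, and the difference between days 30 and 14 was 1.59 log2 units (unadjusted p = 0.01, adjusted p = 1).

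A pair of cadherin transcripts rose together. CDH1 (TRINITY_DN41304_c1_g1_i6_1), the adhesion protein of epithelial junctions, stood at 7.93, 8.77 and 14.6 scaled FPKM in Ori and at 95.1, 136 and 63.7 in D30FL, a log2 change of 3.10 (SE 0.37, adjusted p = 0.00587). The transcript matched to B-cadherin (TRINITY_DN41304_c1_g3_i1_1) stood at 1.52, 2.14 and 1.9 in Ori and at 77.3, 164 and 50.3 in D30FL, a log2 change of 4.94 (SE 0.46, adjusted p = 0.00177). At day 14 CDH1 already stood at 52.5, 50.1 and 85.1 and the B-cadherin transcript at 64.9, 30 and 75.4. Their names place them in the same cluster of the assembly, so reads may be shared between them and they are not independent. D30FL 3 was the lowest of the day 30 fish in both, and still above the highest Ori fish. Of the 19 tested genes of the junction and adhesion list, CDH1 was the one that rose and 0 fell, and the list median was 0.02 log2 units.

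Complement components C6 and C7, which build the membrane pore of the complement cascade, also rose. C7 stood at 16.1, 12.4 and 16 scaled FPKM in Ori and at 78.6, 85.6 and 125 in D30FL, and C6 at 6.65, 6.42 and 7.55 in Ori and at 37.6, 43.1 and 72.5 in D30FL. For both, D30FL 3 was the highest fish of its group, and without it they were still called (log2 changes of 2.40 and 2.39, adjusted p = 0.00891 and 0.0111). With all libraries the log2 changes were 2.60 for C7 (SE 0.32, adjusted p = 0.0059) and 2.67 for C6 (SE 0.37, adjusted p = 0.00869). At day 14 C7 already stood at 85.3, 60.3 and 109 and C6 at 59.1, 35 and 80.5. They were the 2 members that rose among 31 tested genes of complement and plasma proteins, whose median was -0.22 and changed sign without scaling.

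FBLN1, a matrix protein that binds elastic fibres and basement membranes, stood at 2.04, 1.23 and 1.85 scaled FPKM in Ori and at 24, 26.2 and 16.6 in D30FL, a log2 change of 3.09 (SE 0.33, adjusted p = 0.00282). At day 14 it already stood at 16.9, 13.4 and 23.7. THBS1, a matrix glycoprotein, rose by 2.19 log2 units (SE 0.37, adjusted p = 0.0185) from 8.06, 10.3 and 11 to 45.7, 71.6 and 33.3. Unlike FBLN1, THBS1 kept its call in only 5 of the 9 fits that left out a library. The day 30 fish were above the day 0 fish in both, with D30FL 3 the lowest. They were the 2 of 33 tested extracellular matrix and fibroblast genes that rose, and 0 fell. The list median was 0.73 log2 units, against 0.05 over all transcripts tested. COL1A2, the second chain of type I collagen, stood at 12.9 and 5.02 in D30FL 1 and 2. In D30FL 3 it stood at 328, above Ori 1, 2 and 3 at 106, 278 and 312. It was chosen for being called only without D30FL 3, so this difference among the day 30 fish follows from the choice. Its adjusted p was 0.179 with all fish and 0.00583 without D30FL 3.

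Further transcripts called with any single library left out were CRISPLD2, MOXD1, CDIPT, CHD5 and a copy of a jockey-type mobile element. CDIPT, the enzyme that makes phosphatidylinositol, was among the most even: 8.18, 7.34 and 8.10 scaled FPKM in Ori and 77.7, 62.1 and 62.5 in D30FL, a log2 change of 2.94 (SE 0.29, adjusted p = 0.00211). CRISPLD2, a secreted protein, rose by 3.8 log2 units (SE 0.55, adjusted p = 0.0108) and MOXD1, a monooxygenase homolog, by 2.69 (SE 0.33, adjusted p = 0.00587). CHD5, a chromatin remodeller, fell by 2.75 log2 units (SE 0.35, adjusted p = 0.0066), from 9.01, 14.3 and 8.17 to 0.543, 0.902 and 0.586. At day 14 it already stood at 1.11, 0.926 and 1.23. Between days 30 and 14 the unadjusted p was 0.38 for CHD5, 0.638 for CRISPLD2, 0.684 for MOXD1 and 0.964 for CDIPT. The mobile element stood at 83.8, 55.1 and 122 scaled FPKM in D14FL and at 222, 497 and 82.6 in D30FL, a log2 difference of 1.33 (unadjusted p = 0.0418, adjusted p = 1).

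Of the 14 largest rises among called fish-matched transcripts whose groups did not overlap, taking 1 transcript per gene name, 11 belonged to digestive enzymes of the pancreas, and the others were INS, HAAF and VMO1. Of the 18 tested members of the pancreatic list, 11 rose and 0 fell, and the median log2 change was 6.09. All 18 had 3 day 30 values above the 3 day 0 values. Over all fish-matched transcripts tested, 0.715% were called higher and 25.5% did not overlap in either direction. Summed over the 18, the level was 117 to 285 scaled FPKM in Ori and 3604 to 14361 in D30FL, with D30FL 3 the lowest of its group and D30FL 1 the highest. In a bulk tissue sample, more cells of a type and more RNA per cell cannot be told apart.

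CELA3, an elastase, stood at 0.666, 0.757 and 4.67 scaled FPKM in Ori and at 717, 334 and 156 in D30FL, and it rose by 7.04 log2 units (SE 1.17, adjusted p = 0.0184). CEL, a lipase that bile salts activate, stood at 1, 2.33 and 8.33 in Ori and at 482, 183 and 164 in D30FL, a log2 change of 5.95 (SE 1.01, adjusted p = 0.0186). In both genes D30FL 3 was the lowest day 30 fish and Ori 3 the highest day 0 fish, and the groups did not overlap.

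The trypsins were represented by several transcripts of like annotation, between which reads may be shared. One matched to anionic trypsin-1 (TRINITY_DN31765_c0_g1_i1_1) stood at 0, 0.335 and 2.53 scaled FPKM in Ori and at 1254, 209 and 225 in D30FL, a log2 change of 7.86 (SE 1.42, adjusted p = 0.0223). Other called proteases were the chymotrypsins CTRA, CTRB and CTRC, with log2 changes of 6.10, 6.88 and 6.10, the elastases CELA1 and ELA2A, with 6.60 and 7.46, and trypsin-3 (TRY3), with 6.72. The lipase PNLIPRP2 differed in that it was already well expressed at day 0, at 86.5, 94.7 and 78.2, and stood at 453, 309 and 414 at day 30 (log2 change 2.15, adjusted p = 0.0244). Members not called included AMY1, an amylase, at 11.7, 0.837 and 42 in D30FL against 0, 0.439 and 0.38 in Ori (adjusted p = 0.0885).

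Beside these proteases moved HAAF and VMO1, transcripts matched to a hemagglutinin/amebocyte aggregation factor and to an egg membrane protein homolog. HAAF stood at 0.156, 0.127 and 17.6 scaled FPKM in Ori and at 687, 388 and 329 in D30FL (log2 change 7.27, SE 1.33, adjusted p = 0.0234). VMO1 stood at 0.148, 1.28 and 3.51 in Ori and at 653, 513 and 100 in D30FL (log2 change 7.15, SE 1.46, adjusted p = 0.0339). In both, as in the summed pancreatic enzymes, Ori 3 and D14FL 3 were the highest of their groups.

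D30FL 3 weighed little on the calls of the enzyme list. Without it 12 of 18 were called, against 3.38% of all fish-matched transcripts tested called higher, and the median was 6.39. Single protease transcripts matched to TRY2, CPA1, ELA2A and TRYP were called only without D30FL 3 (limma adjusted p = 0.0447, 0.0359, 0.034 and 0.0392). The number of calls in the list depended on other libraries more than the size of the change did. It was 0 without D30FL 1, 2 without D30FL 2, 1 without Ori 1, 4 without Ori 2, 6 without Ori 3, 6 without D14FL 1, 13 without D14FL 2 and 17 without D14FL 3. The list median stayed between 5.51 (without D30FL 1) and 6.79 (without Ori 3) in these fits. At day 14 the enzymes ranged more widely, from a sum of 527 in D14FL 2 to 20551 in D14FL 3, so that days 14 and 30 overlapped.

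**Figure D3:**
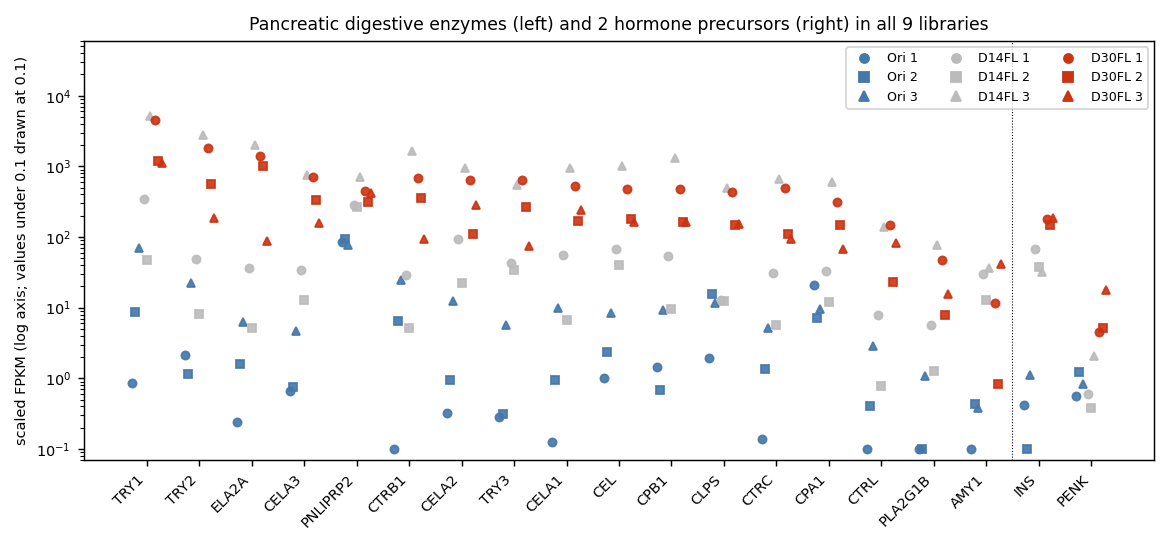
Scaled FPKM (log axis, values under 0.1 drawn at 0.1) of 17 of the 18 tested pancreatic digestive enzymes and, right of the dotted line, of INS and PENK in each of the 9 libraries. The Ori fish (blue) lie below the day 30 fish (red) for each gene shown. For the enzymes, D14FL 3 (grey triangle) is the highest day 14 fish, and D30FL 3 (red triangle) is often, but not always, the lowest day 30 fish.

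Few endocrine markers were called beside INS. Of 17 tested, INS and PENK rose, 0 fell and the median log2 change was 0.65. In 6 of the 17 all 3 day 30 fish lay above the day 0 fish, and in 3 all lay below. Over all fish-matched transcripts tested, 25.5% did not overlap in either direction. PENK, the precursor of enkephalins, stood at 0.567, 1.23 and 0.832 scaled FPKM in Ori, at 0.596, 0.38 and 2.08 in D14FL and at 4.54, 5.09 and 17.6 in D30FL, with D30FL 3 the highest. Its log2 change was 2.21 (SE 0.51, adjusted p = 0.0498), and the call was lost in each fit that left out a library, D30FL 3 included (adjusted p = 0.0509). Among other hormones, GCG, which encodes glucagon and related peptides, stood at 14.5, 53.6 and 70.4 in Ori and at 85, 83.6 and 42.1 in D30FL (adjusted p = 0.385). The summed level of the 17 was 73.6 to 183 in Ori and 381 to 481 in D30FL. Of this sum INS alone made up 0 to 1.13 in Ori and 148 to 188 in D30FL. With INS taken out, the sum was still higher in each day 30 fish than in any day 0 fish, though narrowly in D30FL 3. Among the 21 tested liver markers 0 were called, and their sum was 97.5 to 170 in Ori and 51.1 to 160 in D30FL. The part of pancreatic tissue in the sampled gut was not tested.

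Of 20 tested glucocorticoid and acute stress genes, 5 rose and 0 fell, and the median log2 change was 1.37. Over all fish-matched transcripts tested, 0.715% were called higher. Beside DDIT4 and FKBP5 the list members that rose were CEBPD, CDKN1A and KLF9. CEBPD, a transcription factor of the acute response, stood at 63.2, 77.8 and 75.6 scaled FPKM in Ori and at 660, 460 and 228 in D30FL. The groups did not overlap, with D30FL 3 the lowest, and the log2 change was 2.50 (SE 0.45, adjusted p = 0.0228). CDKN1A, which encodes the cell cycle inhibitor p21, stood at 2.19, 2.87 and 1.17 in Ori and at 47.9, 36 and 7.95 in D30FL (log2 change 3.08, SE 0.61, adjusted p = 0.031). KLF9, a transcription factor induced by glucocorticoids in mammals, stood at 1.15, 0.41 and 0.501 in Ori and at 3.28, 24.7 and 8.74 in D30FL (log2 change 2.63, adjusted p = 0.0401). The receptor gene NR3C1 itself stood at 2.69, 3.47 and 3.05 in Ori and at 2.86, 15.6 and 1.92 in D30FL, where D30FL 2 alone was high (adjusted p = 0.635). Against the Ori mean, the list median reached 1.52, 1.98 and 0.51 in D30FL 1, 2 and 3. Leaving out a library left between 2 and 6 of the 20 called. At day 14 CEBPD already stood at 205, 167 and 417 and CDKN1A at 13.1, 15.3 and 40.2.

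Genes of fasting metabolism and lipid storage gave a few rises. In the fasting list 3 of 26 tested members rose and 0 fell: PCK1, IGFBP3 and PHKG1, with a list median of 0.44. IGFBP3, a carrier of insulin-like growth factors, stood at 4.22, 10.6 and 3.15 scaled FPKM in Ori and at 27.3, 64.4 and 25.6 in D30FL (log2 change 2.54, SE 0.45, adjusted p = 0.0215). PHKG1, a catalytic subunit of phosphorylase kinase, was dominated by D30FL 2, at 502 against 19.6 and 11.8 in D30FL 1 and 3 (adjusted p = 0.0462). Of 27 lipid genes 3 rose and 0 fell. ANGPTL4, an inhibitor of lipoprotein lipase, stood at 2.06, 1.89 and 1.31 in Ori and at 18.9, 22.2 and 7.94 in D30FL (log2 change 2.55, SE 0.42, adjusted p = 0.017). PLIN2, a coat protein of lipid droplets, stood at 7.06, 9.74 and 9.87 in Ori and at 100, 119 and 28.6 in D30FL (log2 change 2.86, SE 0.57, adjusted p = 0.0316), and the cholesterol exporter ABCA1 rose by 2.59 (SE 0.56, adjusted p = 0.041). In each of the 3, D30FL 3 was the day 30 fish nearest to day 0 and still above the Ori range. Of the 3, 0 were called when Ori 3, D30FL 1 or D30FL 2 was left out. At day 14 ANGPTL4 already stood at 13.8, 8.97 and 19.4, PLIN2 at 20.1, 57.1 and 77.9 and ABCA1 at 23.4, 18.7 and 42.1.

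Within fat synthesis a pair of desaturases moved in opposite directions. SCD, which makes monounsaturated fatty acids, stood at 2.13, 4.42 and 9.49 scaled FPKM in Ori and at 69.8, 213 and 24.7 in D30FL and rose by 3.70 log2 units (SE 0.85, adjusted p = 0.0477). FADS2, which acts in the synthesis of long polyunsaturated fatty acids, stood at 17.8, 16 and 12.2 in Ori and at 4.11, 2.22 and 1.16 in D30FL and fell by 2.30 log2 units (SE 0.44, adjusted p = 0.0261). D30FL 3 was closest to the Ori level for SCD and farthest from it for FADS2. In sterol synthesis TM7SF2, a sterol reductase, fell by 1.91 log2 units (SE 0.37, adjusted p = 0.029). It was the one call among 24 members, whose median was -0.83. In this list D30FL 1, at 0.16 against the Ori mean, was the fish that stayed at the day 0 level, and D30FL 2 and 3 stood at -1.55 and -1.10.

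Of 40 tested genes of cell division, 3 fell and 0 rose at day 30, 39 had a log2 change below 0, and the median was -1.03. Over all fish-matched transcripts tested, 0.845% were called lower. The size of the difference in the list depended on the fish. MKI67, a marker of cycling cells, stood at 5.2, 4.25 and 4.95 scaled FPKM in Ori and at 0.482, 0.526 and 1.39 in D30FL. PLK1, a mitotic kinase, stood at 12.4, 11.8 and 14.2 in Ori and at 3.09, 3.21 and 5.47 in D30FL. TYMS, which makes thymidylate for DNA, stood at 17.5, 13.6 and 24.4 in Ori and at 2.64, 2.91 and 9.30 in D30FL. In all 3 genes D30FL 1 and 2 were alike, D30FL 3 lay between them and the day 0 fish, and the groups did not overlap. The log2 changes were -1.72 for MKI67 (SE 0.36, adjusted p = 0.0363), -1.52 for PLK1 (SE 0.33, adjusted p = 0.0423) and -1.85 for TYMS (SE 0.43, adjusted p = 0.0483).

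Across the 40 cell division genes D30FL 3 was the nearest day 30 fish to the Ori mean for 36, and it was inside the Ori range for 17. Over all fish-matched transcripts tested it was nearest for 53.5% and inside the range for 48.1%, so the 17 are no trait of this list. Against the Ori mean, the median of the 40 genes stood at -1.29, -1.78 and -0.34 in D30FL 1, 2 and 3. Without D30FL 3, 17 of the 40 were called lower, against 3.99% of all fish-matched transcripts tested. Without D14FL 3, 2 of the 40 were, and without any other single library 0 were. The day 14 fish stood at -1.57, -1.48 and -1.08, close to D30FL 1 and 2.

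In genes of mitochondrial respiration D30FL 3 was again the day 30 fish nearest to day 0. Of 50 tested nuclear genes of oxidative phosphorylation, 3 fell and 0 rose, 49 had a log2 change below 0, and the median was -0.92. Over all fish-matched transcripts tested, 0.845% were called lower. At day 14 the list median already lay below the Ori mean, at -1.28, -1.14 and -0.92 in D14FL 1, 2 and 3. In D30FL 1, 2 and 3 it stood at -0.98, -1.48 and -0.40. COX6B1, a subunit of cytochrome c oxidase, stood at 174, 61.7 and 137 scaled FPKM in Ori and at 12.6, 5.71 and 40.5 in D30FL (log2 change -2.88, SE 0.58, adjusted p = 0.033). NDUFS5 and NDUFB9, subunits of complex I, stood at 187 to 240 and at 176 to 228 in Ori, and at 18 to 108 and at 34.2 to 107 in D30FL (log2 changes -2.21 and -1.77, adjusted p = 0.0474 and 0.0436). D30FL 3 was the highest of its group in these genes and below the Ori range. It was nearest to the Ori mean for 47 of the 50 and inside the Ori range for 12, against 53.5% and 48.1% of all fish-matched transcripts tested. Without D30FL 3, 23 of the 50 were called lower, against 3.99% of all fish-matched transcripts tested. The count was 1 without Ori 2, D14FL 2 or D14FL 3 and 0 without any other library.

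**Figure D4:**
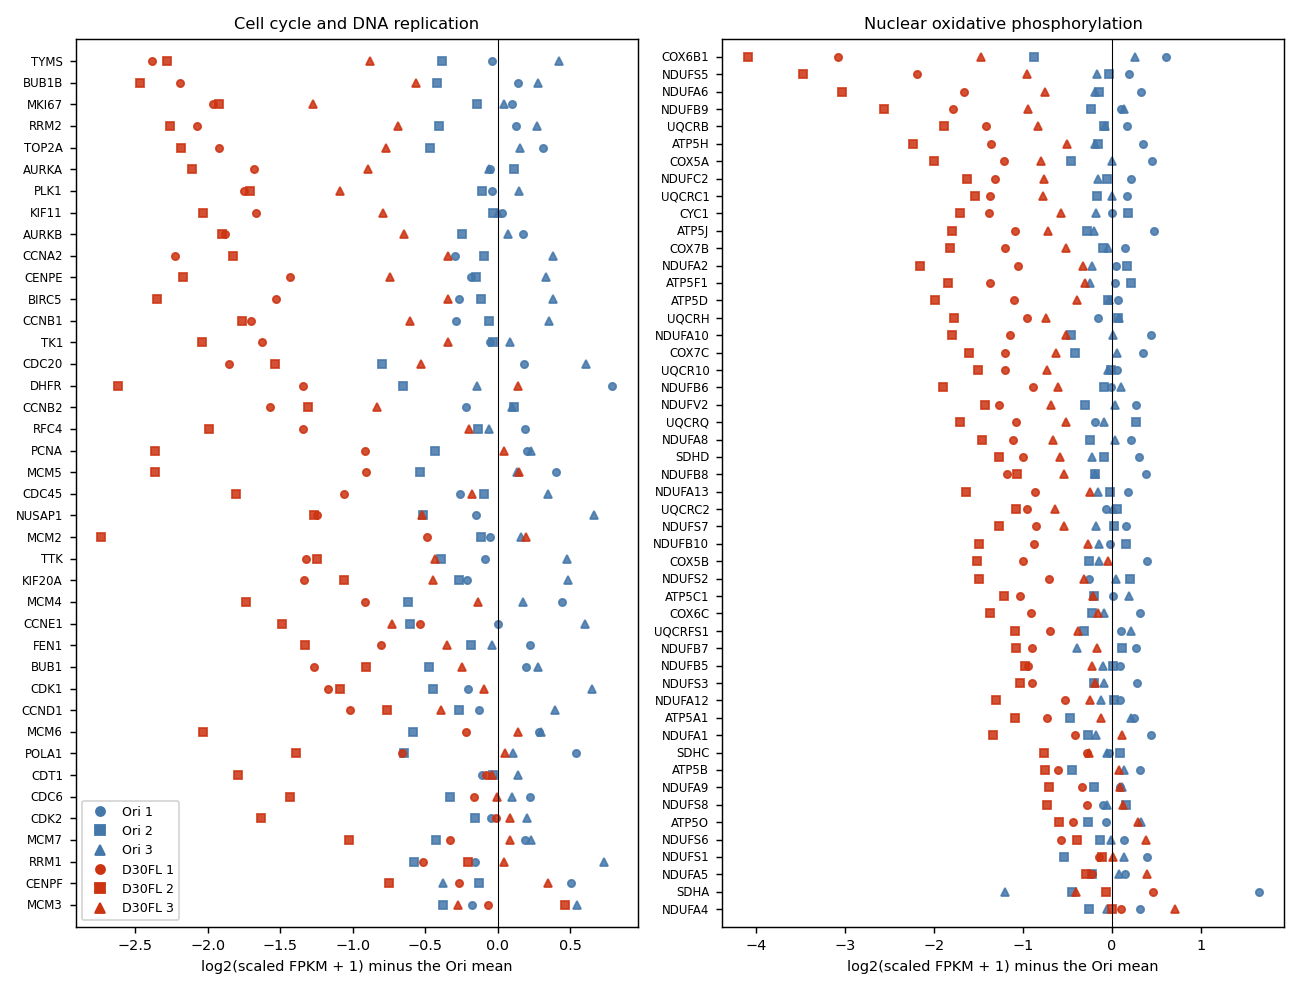
For each tested member of the cell division list (left, 40 genes) and of the nuclear oxidative phosphorylation list (right, 50 genes), log2(scaled FPKM + 1) of each Ori and D30FL fish minus the Ori mean. D30FL 1 and D30FL 2 (red circles and squares) lie left of the Ori fish (blue) for most genes, and D30FL 3 (red triangles) lies nearer to 0 than either for most.

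Mitochondrially encoded genes were represented by 5 tested transcripts in the list, of which 0 were called. In 4 all 3 day 30 fish lay below the day 0 fish, and in 1 all 3 lay above them. Over all fish-matched transcripts tested, 25.5% did not overlap in either direction. Without D30FL 3, 3 of the 5 were called lower and 1 higher, against 3.99% and 3.38% of all fish-matched transcripts tested. ATP6, an ATP synthase subunit, stood at 18590, 24108 and 14540 scaled FPKM in Ori and at 3405, 1450 and 5725 in D30FL. The groups did not overlap, and the log2 change of -2.62 had an adjusted p of 0.0555, or 0.0223 without D30FL 3. ND5, a complex I subunit, had a log2 change of -2.16 (adjusted p = 0.0561, and 0.0303 without D30FL 3). A separate, less abundant transcript matched to subunit ND1 of a sturgeon (MTND1, TRINITY_DN21591_c0_g1_i1_2) fell by 4.60 log2 units (SE 0.79, adjusted p = 0.0195), from 188, 1009 and 362 to 14.9, 4.03 and 59.5. The summed level of the 5 list transcripts was 36264 to 62252 in Ori, already 12507 to 14863 in D14FL, and 8497 to 19371 in D30FL. These values come from libraries selected on poly(A), so the level of RNA with short tails was not measured.

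Among antioxidant genes 2 of 27 tested fell and 0 rose, with a median of -0.81. CAT, which encodes catalase, stood at 82.4, 49.3 and 79.5 scaled FPKM in Ori and at 16, 12.6 and 29.6 in D30FL (log2 change -1.86, SE 0.35, adjusted p = 0.0262). GSTM3, a glutathione transferase, stood at 251, 182 and 204 in Ori and at 21.8, 7.08 and 72.5 in D30FL (log2 change -3.15, SE 0.61, adjusted p = 0.0272). The groups did not overlap in either gene, and D30FL 3 was the highest day 30 fish. Neither gene was called when Ori 1, Ori 3, D30FL 1 or D30FL 2 was left out. At day 14 CAT already stood at 20.4, 22.4 and 20.7 and GSTM3 at 31.9, 32.8 and 37.5. CYP1A1, a detoxifying enzyme induced by aromatic compounds, differed: it stood at 26.6, 53.4 and 77.9 in Ori and at 14.4, 8.17 and 5.62 in D30FL, where D30FL 3 was the lowest. It fell by 2.33 log2 units (SE 0.43, adjusted p = 0.0242), and by 2.05 without D30FL 3 (adjusted p = 0.0282).

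Immune genes of the interferon and antigen presentation lists were lower in the medians, with 1 call each. In the interferon list, 1 of 19 tested genes fell, 0 rose and the median was -1.16. IRF1, a transcription factor of that response, stood at 62.8, 44.1 and 58 scaled FPKM in Ori and at 8.39, 13.4 and 24 in D30FL (log2 change -1.88, SE 0.38, adjusted p = 0.0337). Part of this list differed among the day 0 fish: its median against the Ori mean was 0.70 in Ori 3 and -0.22 and -0.47 in Ori 1 and 2. Of 14 antigen presentation genes 1 fell, 0 rose and the median was -1.04. PSMB9, a subunit of the immunoproteasome, stood at 51.4, 67.5 and 99.9 in Ori and at 6.34, 3.64 and 29.8 in D30FL (log2 change -2.81, SE 0.59, adjusted p = 0.0368). Its D30FL 3 value was the highest at day 30, and without that fish the adjusted p was 0.00427. Without it 4 of the 14 genes were called lower, against 3.99% of all fish-matched transcripts tested. At day 14 IRF1 already stood at 20.4, 19.8 and 12.4 and PSMB9 at 13.5, 15.1 and 8.55.

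Markers of immune cells gave 1 call. Of 17 macrophage and granulocyte genes, AIF1, a calcium-binding protein of macrophages, fell by 1.71 log2 units (SE 0.37, adjusted p = 0.041), from 203, 183 and 275 scaled FPKM to 80.6, 37.9 and 92.7. It kept its call in 1 of the 9 fits that left out a library. The list did not fall with it: 8 of the 17 had a log2 change above 0, and the median was -0.18. Among 18 T and natural killer cell genes and 14 B and plasma cell genes 0 were called, with medians of -0.45 and -0.37. CD3E, a chain of the T cell receptor complex, stood at 21.8, 9.83 and 11.5 in Ori and at 3.14, 3.12 and 6.5 in D30FL (adjusted p = 0.0704, and 0.0325 without D30FL 3). The macrophage and B cell medians changed sign without scaling, to 0.24 and 0.03.

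In the brush border list 0 of 29 tested genes were called, 4 had a log2 change above 0, and the median was -0.48. Summed over the 29, the level was 7360 to 15870 scaled FPKM in Ori, 3308 to 6265 in D14FL and 1486 to 6663 in D30FL. D30FL 3 had the highest sum of its group. The members of smallest p were ENPEP and MEP1B, peptidases of the enterocyte surface. ENPEP stood at 170, 157 and 180 scaled FPKM in Ori, at 126, 177 and 111 in D14FL and at 53.2, 16.5 and 79.4 in D30FL. MEP1B stood at 187, 98.6 and 153 in Ori, at 168, 182 and 114 in D14FL and at 46.9, 52.3 and 82.2 in D30FL. In both genes days 0 and 14 overlapped and all 3 day 30 fish lay below them, D30FL 3 being the highest. The adjusted p against day 0 was 0.0551 for ENPEP and 0.0841 for MEP1B, and 0.0177 and 0.0402 without D30FL 3. Against day 14 the log2 changes were -1.68 and -1.35 (unadjusted p = 0.00495 and 0.00295, adjusted p = 1 for both). Without D30FL 3, 6 of the 29 were called lower, against 3.99% of all fish-matched transcripts tested. The list median against the Ori mean was -0.71, -0.81 and -0.27 in D30FL 1, 2 and 3.

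**Figure D5:**
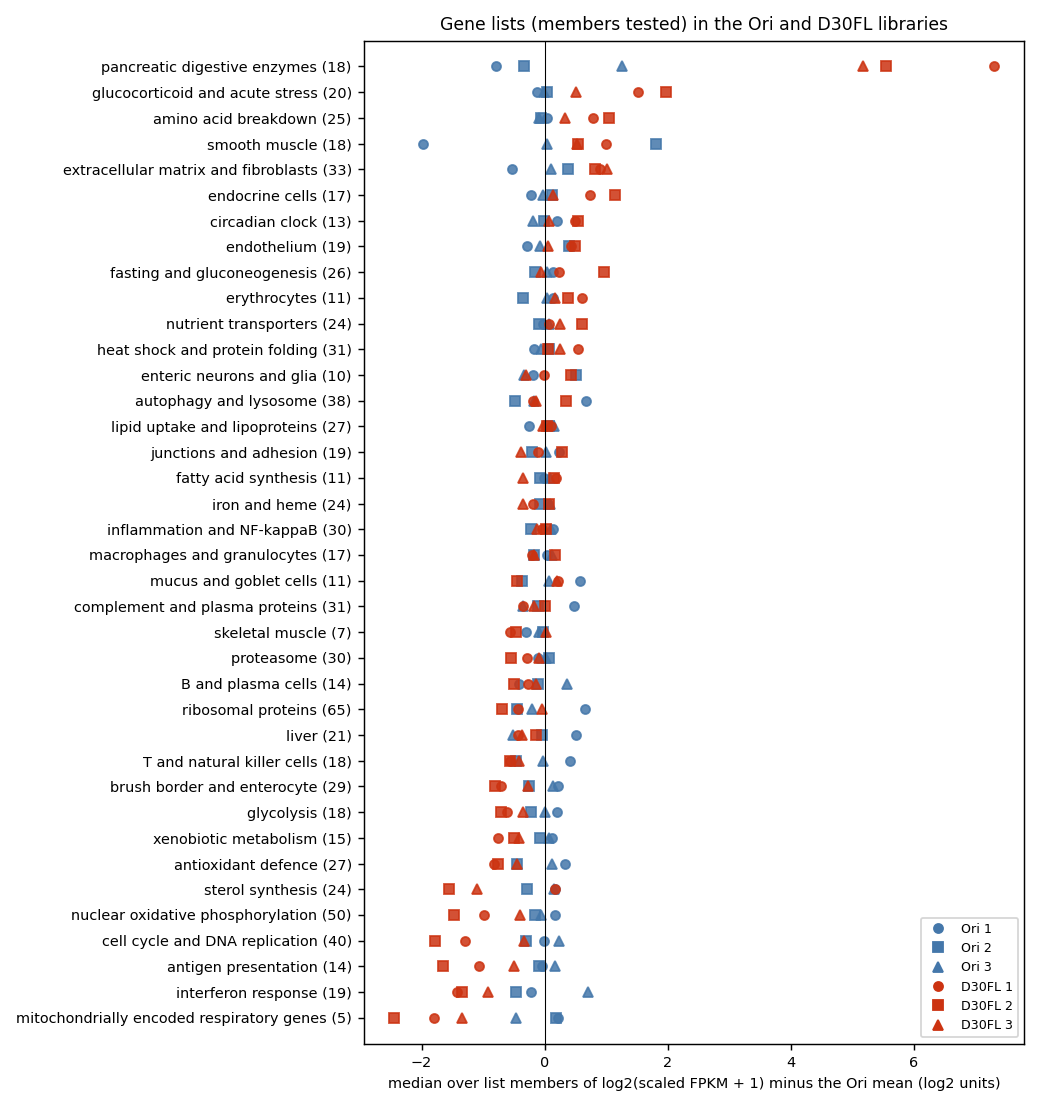
Median over the tested members of each of 38 gene lists of log2(scaled FPKM + 1) minus the Ori mean, for each Ori (blue) and D30FL (red) fish. Pancreatic enzymes lie at 7.31, 5.55 and 5.17 in D30FL 1, 2 and 3, and for the cell division, respiration and antigen presentation lists D30FL 3 is the red point nearest 0; 9 of the 38 list medians over all fish change sign under another scaling.

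Other fish-matched transcripts that fell included several that were as low at day 14. SPIC, a transcription factor of iron-recycling macrophages in mammals, stood at 116, 98.4 and 80.7 scaled FPKM in Ori and at 7.98, 3.58 and 25.2 in D30FL (log2 change -3.26, SE 0.61, adjusted p = 0.0247). NANOS2, an RNA-binding protein known from germ cells, stood at 72.6, 106 and 30.6 in Ori and at 6.14, 7.07 and 8.30 in D30FL (log2 change -2.95, SE 0.41, adjusted p = 0.00956). HINT1, a nucleotide hydrolase, stood at 319, 185 and 280 in Ori and at 36.4, 22.5 and 58.8 in D30FL (log2 change -2.77, SE 0.37, adjusted p = 0.00825). In all 3 genes the day 14 values lay near those of day 30. The day 30 fish did not overlap those of day 0, which the choice of these transcripts required.

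GADL1, a decarboxylase of acidic amino acids, fell between days 0 and 30. It stood at 53.8, 25.5 and 31.5 scaled FPKM in Ori, 12.5, 6.07 and 11.8 in D14FL and 2.56, 1.81 and 6.19 in D30FL. Its log2 change from day 0 was -3.12 (SE 0.44, adjusted p = 0.00973) and from day 14 -1.36 (unadjusted p = 0.00957, adjusted p = 1), where D30FL 3 overlapped the day 14 fish. NARE, an ADP-ribosyltransferase, stood at 7.45, 4.74 and 10.9 in Ori, at 1.08, 3.09 and 5.32 in D14FL, and was listed at 0 in D30FL 1 and 2 and at 0.626 in D30FL 3 (log2 change from day 0 -2.82, SE 0.48, adjusted p = 0.0186). D30FL 3 held the highest day 30 value in both.

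Ribosomal protein genes gave 3 falls among 65 tested and 0 rises, where 0.845% of all fish-matched transcripts tested were called lower. Their median of -0.37 turned to 0.09 without scaling and to 0.07 under quantile normalization. RPS27 stood at 188, 86.9 and 126 scaled FPKM in Ori and at 25, 22 and 40 in D30FL (log2 change -2.14, SE 0.37, adjusted p = 0.0194). RPL23A, a transcript chosen outside the list, stood at 2368, 1396 and 1253 in Ori and at 190, 84.9 and 261 in D30FL (log2 change -3.31, SE 0.53, adjusted p = 0.016). Both had 3 day 30 fish far below the day 0 fish. Whether reads were shared between transcripts of like annotation was not tested.

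A further set of transcripts was called when D30FL 3 was left out and not with all 9 libraries. D30FL 3 differs from the other day 30 fish in most of them by this choice, so their values are given as a description. A type I keratin (K1C5) stood at 176, 147 and 579 scaled FPKM in Ori, at 10.6 and 6.29 in D30FL 1 and 2 and at 239 in D30FL 3, inside the Ori range. SPINK1, matched to a pancreatic secretory trypsin inhibitor, stood at 64.9, 29.1 and 150 in Ori, at 2.27 and 2.29 in D30FL 1 and 2 and at 78.5 in D30FL 3. Unlike the pancreatic enzymes, it was lower in D30FL 1 and 2 than at day 0. In both genes D30FL 3 was far above the other day 30 fish and inside the day 0 range. Without D30FL 3 the log2 changes were -4.75 for the keratin and -4.35 for SPINK1 (adjusted p = 0.00751 and 0.0105), and with it the adjusted p was 0.123 and 0.159.

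On the higher side the same held for CLC4E and IGFBP1. CLC4E, a C-type lectin receptor of innate immune cells, stood at 9.19, 4.43 and 3.45 scaled FPKM in Ori, at 133 and 345 in D30FL 1 and 2 and at 12 in D30FL 3 (adjusted p = 0.0554 with all fish and 0.00427 without D30FL 3). IGFBP1, a binding protein of insulin-like growth factors that rises in fasting, stood at 32.9, 2.55 and 3.4 in Ori, at 59.1 and 586 in D30FL 1 and 2 and at 15.7 in D30FL 3 (adjusted p = 0.128, and 0.0346 without D30FL 3). D30FL 3 lay just above the Ori range for CLC4E and within it for IGFBP1.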

How the data were processed

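RNA-seq of gut tissue was deposited as a single table of FPKM for 9 libraries, each from a separate fish. Per the labels' protocols, poly(A) RNA was selected and the second strand was digested. The tool cutadapt 1.9 is listed in the submitters' processing notes, as is a mouse build, mm10, with no role; it was not used here. Per the name and headers of the file, the values are the authors' FPKM, of a de novo assembly with annotation. How reads were quantified, and how many there were, is not given in the sources used here, so no counting interval is stated.

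The deposited FPKM were divided by median-of-ratios factors (0.675 to 1.22) from the 45176 transcripts above 0 in all 9 libraries, which gives scaled FPKM. The 53822 transcripts with at least 1 scaled FPKM in at least 3 libraries were tested on log2(scaled FPKM + 1) by limma 3.58.1 (lmFit, contrasts, eBayes with trend; R 4.3.3), two-sided, over all 9 libraries, with 6 residual and 5.43 prior degrees of freedom. The log2 changes understate those of low transcripts. The pipeline was tested on simulated data. Plots used Python 3.11.15 with matplotlib 3.10.9.

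The members and the 38 gene lists were chosen with earlier results of these data known. Symbols were matched to Swiss-Prot or KEGG names (862 of 1152 found, 848 tested), the transcript of highest mean level standing for each. Transcripts were named by rule: the 14 highest and 14 lowest changes among called fish-matched transcripts with a mean of at least 5 scaled FPKM in the higher group and no overlap, 1 per gene name; of each list up to 4 called members, or the 2 of smallest p; and the 6 highest and 6 lowest changes called only without D30FL 3. Genes outside the rule (VIL1, CDX1, KLF9, NR3C1, GCG, AMY1, PNLIPRP2, CRISPLD2, CDIPT, MOXD1, B-cadherin and the mobile element) were named after their values were seen. A few transcripts that the rule names are not reported here. Other scalings, pseudocounts, filters, fits, a replicate block and each library left out were tried as alternatives.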

Additional observations from a re-analysis of the deposited data

How the results depend on the processing

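Of 66 named called transcripts, 9 (INS, DDIT4, FKBP5, PCK1, CDH1, C6, C7, FBLN1 and CHD5) kept their call under every alternative that tested them. Apart from leaving out a library, 25 kept it under every alternative that tested them, and 0 changed direction. A filter on a mean of at least 5 scaled FPKM over the 9 libraries tested 57 of the 66, and CHD5 was not among them. Without scaling, 13 of the 66 lost their call, all of them falls. They were MKI67, PLK1, TYMS, NDUFB9, NDUFS5, PKM, OTC, CYP1A1, IRF1, AIF1, S100B and the ribosomal RPL32 and RPS14. Counts are given as higher and lower over all transcripts, then higher and lower among fish-matched ones. Without scaling they were 1364 and 403, then 393 and 62. With a pseudocount of 0.1, 342 were lower, 89 of them fish-matched, and with a pseudocount of 5, 306 were higher, 81 of them fish-matched, so that higher calls made up 59.2% and 32% of calls. Quantile normalization left 94 fish-matched lower calls. A fit on the 2 groups compared gave 230 and 216, then 81 and 24. Library weights gave 10179 and 9823, then 3337 and 3551, with a weight of 13.5 for D30FL 1 against 0.299 to 1.97 for the others. Between days 30 and 14 the calls were 8230 with weights, 0 with a pseudocount of 5 (1835 at an unadjusted p under 0.05) and 0 in the fit on 2 groups (2117 unadjusted). Leaving out 1 library at a time gave 45 to 2109 higher and 35 to 2299 lower calls, 15 to 676 and 1 to 799 among fish-matched transcripts, and 0 to 2 between days 30 and 14. A median of ratios over transcripts of at least 1 FPKM in all libraries, chosen after seeing the data, gave 603 and 595. The replicate block gave 157 and 199, then 48 and 33; the numbers share no fish, the same-numbered Ori and D30FL deviations correlated at -0.061 to -0.022, and no D30FL library correlated best with its own number in Ori. List medians kept their sign under the other scalings in 29 of 38 lists, and 62 of 836 list medians under an alternative moved by more than the spread between fish. The depth behind the values is unknown.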

Other observations

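Calls in further gene lists were single genes. SLC26A3, a chloride and bicarbonate exchanger of the intestinal epithelium, stood at 20.4, 18.9 and 29.2 scaled FPKM in Ori 1, 2 and 3 and at 51, 58.6 and 64.5 in D30FL 1, 2 and 3, with D30FL 3 the highest. It rose by 1.32 log2 units (SE 0.28, adjusted p = 0.0388), the 1 call among 24 nutrient transporters, although its day 14 values of 89.5 to 100 lay above those of day 30. HSF2, a heat shock transcription factor, stood at 3.57, 10.3 and 3.21 in Ori and at 19.2, 15.9 and 21.1 in D30FL (log2 change 1.71, SE 0.38, adjusted p = 0.0438). D30FL 3 was again the highest fish, and of 31 heat shock and folding genes no other was called. MAP1LC3A, a marker protein of autophagosomes, rose by 2.89 log2 units (SE 0.62, adjusted p = 0.039) from 24.8, 11.1 and 11.8 to 103, 329 and 46.5, as the 1 of 38 autophagy and lysosome genes. STEAP4, a metalloreductase, stood at 0.453, 0.242 and 0.0938 in Ori and at 7.08, 50 and 3.68 in D30FL (log2 change 3.31, SE 0.77, adjusted p = 0.0496). In the last 2 genes D30FL 2 was high and D30FL 3 the lowest of its group, still above day 0.

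Falls outside the lists described above included PKM, a transcript matched to pyruvate kinase, which stood at 25, 12.1 and 12.5 scaled FPKM in Ori and at 1.18, 1.91 and 5.08 in D30FL (log2 change -2.30, SE 0.52, adjusted p = 0.0469). It was the 1 of 18 glycolysis genes called. OTC, an enzyme of the urea cycle, fell by 1.89 log2 units (SE 0.42, adjusted p = 0.0445), although the median of its list of 25 amino acid breakdown genes was 0.99. S100B, a marker of enteric glia, stood at 7.36, 12.8 and 1.02 in Ori and at 0, 0.111 and 0 in D30FL (adjusted p = 0.0497). It was the 1 call among 10 genes of neurons and glia. The list did not fall with it: 6 of the 10 had a log2 change above 0, and the median was 0.14. The smooth muscle list gave 0 calls among 18 and varied most of the 38 lists among the day 0 fish, with a summed level of 576 in Ori 1, 8943 in Ori 2 and 2998 in Ori 3, against 1014 to 2614 at day 30.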
